A study of Mus musculus with 23 samples.

Results

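Mouse embryonic fibroblasts (MEFs) that lacked both Snf5 and Ezh2 were compared with MEFs that lacked Ezh2 alone. The labelled difference was the added loss of Snf5. Each line was a separate group of samples, and the labels give no order in which the genes were lost. Words of time or movement below, such as step, before, after, rose, fell or undone, stand for differences between groups. The arrays were chosen by their titles: 3 Snf5 Ezh2-deficient and 3 Ezh2-deficient arrays, each with the 3 wild-type MEF arrays named as its control. These made up 12 of the 23 samples of the series. The wild-type arrays of both sets were the same hybridisations summarised on separate occasions, which left 9 distinct arrays, 3 for each genotype. All cells were fibroblasts from E13.5 embryos. The wild-type cells carried no named alteration, the Ezh2-deficient cells lacked Ezh2, and the Snf5 Ezh2-deficient cells lacked both genes. The labels call the arrays of a genotype biological replicates. The labels do not say how or when the genes were deleted, which strain or sex the embryos had, or whether replicates came from separate embryos or cultures, so p-values measure the spread between these samples only. No MEFs lacking Snf5 alone were analysed here, so the effect of Snf5 loss in the presence of Ezh2 was not part of the comparison.

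Ezh2 is the catalytic subunit of Polycomb repressive complex 2 (PRC2), which methylates lysine 27 of histone H3 and keeps developmental genes silent. Snf5, the product of the gene Smarcb1, belongs to the core of SWI/SNF complexes, which use ATP to move nucleosomes and open chromatin. The complexes are known to act against each other at shared genes, and Snf5 is a tumour suppressor lost in rhabdoid tumours. In fibroblasts, PRC2 is known for silencing the Cdkn2a locus, a source of cell-cycle inhibitors, and Hox genes that are not used at a given body position. Against this background, each change found after Ezh2 loss alone could be kept, undone or reversed once Snf5 was also lost, and other genes could move for the first time.

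The values were Robust Multichip Average (RMA) intensities of Affymetrix Mouse 430A 2.0 arrays, given here as log2 values, on which a difference of 1 is a factor of 2. Arrays give no read depth, and their number limits the precision. The median log2 value of the 12 MEF arrays ranged from 7.26 to 7.32. The Snf5 Ezh2-deficient values were brought to the scale of the other arrays by the difference between both summaries of the wild-type arrays, whose median was -0.07. Levels were compared within a gene and not between genes. The mean of the 16 measured fibroblast markers lay between 11.3 and 11.8 on all arrays, and that of 14 T and B lymphocyte markers between 5.83 and 6.03. Neither mean varied much between arrays, and as levels of different probes cannot be compared, these values do not by themselves establish the cell type.

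Smarcb1, the gene of Snf5, was low on the 3 arrays labelled as lacking it. It read 9.33, 9.45 and 9.45 in wild-type, 9.22, 9.28 and 9.31 in Ezh2-deficient, and 7.0, 6.79 and 7.05 in Snf5 Ezh2-deficient MEFs. The last group lay apart from both others, at -2.32 (SE 0.08) from the Ezh2-deficient group. This difference had an adjusted p of 2.53e-07 in limma, with Benjamini-Hochberg adjustment over all 22626 probe sets, and adjusted p-values below are of the same kind. Ezh2 read 7.91, 7.85 and 7.86 in wild-type and 5.81, 5.65 and 5.63 in Ezh2-deficient MEFs. In Snf5 Ezh2-deficient MEFs it read 6.49, 5.94 and 6.21, above each Ezh2-deficient array and well below each wild-type one. Exact two-sided permutation tests between the mutant lines gave p = 0.1 for Smarcb1 and for Ezh2, the smallest p that 3 against 3 arrays allow. Whether the probes fall within the deleted parts of either gene was not tested.

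The Ezh2-deficient arrays differed among themselves in sex-linked genes. Xist, the RNA that coats the inactive X chromosome in female cells, read 6.45, 9.56 and 9.52 on Ezh2-deficient arrays 1, 2 and 3 and between 6.19 and 6.35 on the 6 other arrays. The Y-linked gene Eif2s3y read 8.24, 3.65 and 4.00 on the same 3 arrays and between 8.09 and 8.59 elsewhere. Ezh2-deficient arrays 2 and 3 therefore differed from all others in both genes. Nnt, a mitochondrial transhydrogenase gene with a known deletion in the C57BL/6J strain, was low on all 3 Ezh2-deficient arrays alone. Glo1, whose copy number is known to vary between mouse strains, was low in both mutant lines. The part of sex or strain in the results below was not tested beyond the values given.

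**Figure D1:**
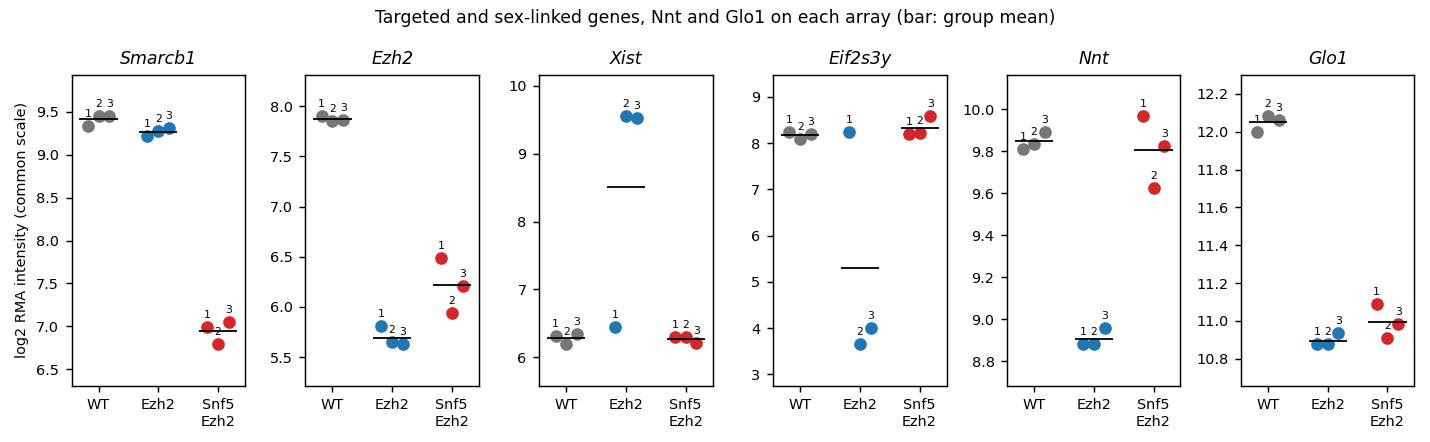
Log2 RMA intensity of Smarcb1, Ezh2, Xist, Eif2s3y, Nnt and Glo1 on each of 9 arrays; points are arrays, numbered 1 to 3 within the wild-type (WT), Ezh2-deficient and Snf5 Ezh2-deficient groups, and bars are group means. Smarcb1 is low in the Snf5 Ezh2-deficient group alone, Ezh2 is low in both mutant lines, and Xist and Eif2s3y set Ezh2-deficient arrays 2 and 3 apart from the other 7.

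Many genes differed between Snf5 Ezh2-deficient and Ezh2-deficient MEFs. Between the mutant lines 3682 of 12393 genes passed an adjusted p of 0.05 (29.7%), of which 2009 were higher (16.2%) and 1673 lower (13.4996%) in Snf5 Ezh2-deficient MEFs. Most differences were small: 166 genes were at least 2-fold higher (1.34%) and 119 at least 2-fold lower (0.96%). Loss of Ezh2 alone had called 428 genes against wild type (3.45%), 126 higher (1.02%) and 302 lower (2.44%). The classes below rest on these genes, whose number depended on the setting. It was 74 with Eif2s3y as a covariate, 49 at an adjusted p of 0.01 and 840 with 12 arrays and separate controls. Against wild type, the Snf5 Ezh2-deficient line had 3383 called genes (27.3%), 1622 higher (13.1%) and 1761 lower (14.2%). The mutant lines were summarised in separate RMA runs, so run and line can be told apart only through the shared controls; without that offset 1923 genes were higher and 3822 lower. With Eif2s3y as a covariate 1862 genes were called between the mutant lines, and 2089 with Ezh2-deficient array 1, the 1 array with low Xist, standing for its group.

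The 3 arrays of each line did not overlap for 44.2% of all genes, and the largest differences are given for called genes among these. Agtr2, a receptor for angiotensin II, read 4.03, 4.64 and 4.41 in Ezh2-deficient and 8.13, 8.61 and 8.78 in Snf5 Ezh2-deficient MEFs, a difference of 4.15 (SE 0.39, adjusted p 5.51e-05). Abi3bp, a matrix protein, rose from 3.73, 4.85 and 4.37 to 8.31, 8.71 and 8.18, by 4.09. For both genes, all 3 Ezh2-deficient arrays lay in the lowest 25% of values, near the floor of the arrays, so the size of the rise is uncertain. Penk, the precursor of enkephalin peptides, read 7.29, 8.31 and 9.0 in Ezh2-deficient and 11.83, 12.35 and 12.42 in Snf5 Ezh2-deficient MEFs, a difference of 4.00 (SE 0.34, adjusted p 3.09e-05). Sfrp2, a secreted Wnt antagonist, rose by 3.45, from 8.84, 8.36 and 9.65 to 12.35, 12.81 and 12.03. Each of these 4 genes was also higher than in wild type, by 3.53 to 4.18, and none was called after Ezh2 loss alone.

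Further rises of over 2.5 were found for Cdo1, a cysteine dioxygenase (2.87), the imprinted gene Mest (2.86), the complement protease C1s1 (2.72), the surface protein Gas1 (2.71), which binds Hedgehog ligands, and the matrix genes Fndc1 (2.53) and Mgp (2.51). Mest read 7.72, 7.47 and 7.87 before and 10.53, 10.77 and 10.34 after the added loss, with wild-type arrays at 7.63, 7.89 and 7.47. Its level in Ezh2-deficient MEFs thus overlapped that of wild type.

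Among the falls, Prkg2, a cGMP-dependent kinase, read 9.11, 9.45 and 9.19 in Ezh2-deficient and 6.66, 6.38 and 7.03 in Snf5 Ezh2-deficient MEFs, a difference of -2.56 (SE 0.15, adjusted p 4.47e-06). Tmem87a, a membrane protein gene, fell by 2.53, from 9.20, 8.54 and 9.40 to 6.42, 6.56 and 6.56. Tmem176b fell by 2.16, from 10.64, 10.73 and 10.67 to 8.32, 8.34 and 8.91. The wild-type values of these 3 genes lay within 0.3 of the Ezh2-deficient mean on average, so the Snf5 Ezh2-deficient line stood apart from both others. Rnf128, a ubiquitin ligase (-2.23), the matrix protein Tinagl1 (-2.18), the protease inhibitor Tfpi2 (-2.15), the melanosomal glycoprotein Gpnmb (-2.12), Car8 (-1.94), Mmp3 (-1.92) and the lipase Lipg (-1.89) followed. Tfpi2 and Car8 lay in the lowest 25% of values on all 3 Snf5 Ezh2-deficient arrays. Mmp3, a matrix metalloproteinase, missed the threshold with Eif2s3y as covariate (-1.03, adjusted p 0.158) and with Ezh2-deficient array 1 alone (-1.04, adjusted p 0.085). Xist was also among these falls, at -2.24, with Ezh2-deficient arrays 2 and 3 alone high.

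**Figure D2:**
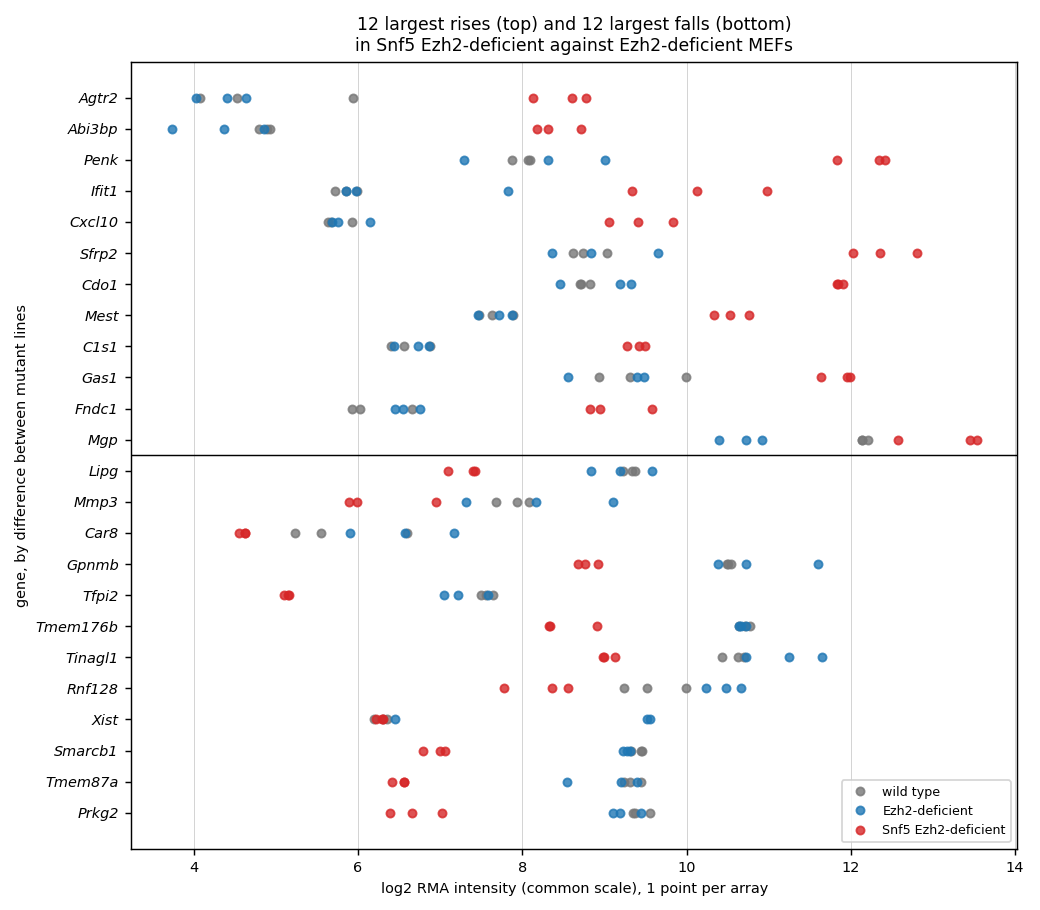
Log2 RMA intensity, 1 point per array, of the 12 genes with the largest rise and the 12 with the largest fall between Ezh2-deficient (blue) and Snf5 Ezh2-deficient (red) MEFs among called genes whose arrays do not overlap; wild-type arrays are grey. For most genes the wild-type points lie with the Ezh2-deficient ones, and Mgp, at 12.14 to 12.21 in wild type, lies between both mutant lines.

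To describe what became of the Ezh2-loss changes, the 428 genes were sorted by 2 further comparisons of the same fit. A change was called undone where the mutant lines differed in the opposite direction and the Snf5 Ezh2-deficient line was not called against wild type, reversed where that line was called against wild type on the other side, and partly undone where it was still called on the same side. It was called kept where the mutant lines were not called different and the line was still called against wild type, and deepened where it went further the same way. By these rules 188 genes were undone (43.9%), 35 reversed (8.18%) and 10 partly undone (2.34%), while 123 were kept (28.7%) and 33 deepened (7.71%). The remaining 39 genes (9.11%) were called in neither comparison and left unresolved.

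An opposite call between the mutant lines was thus found for 233 of 428 genes (54.4%), and a call in the same direction for 33 (7.71%). Over all 12393 genes, whether or not Ezh2 loss had called them, 19.3% were called opposite to the sign of their Ezh2-loss difference and 10.4% along it, and 18.5% were called along it in Snf5 Ezh2-deficient MEFs against wild type. The Ezh2-deficient arrays enter both comparisons with opposite sign, so an error in their mean counts towards undone, and these shares are a description. Genes lower after Ezh2 loss had a median of -0.44 against wild type in Ezh2-deficient and -0.14 in Snf5 Ezh2-deficient MEFs, and genes higher after it had 0.44 and 0.17. Opposite calls were found for 53.2% of the 126 higher and 55.0% of the 302 lower genes.

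The number of genes in each class depended strongly on single arrays, and the shares of single classes moved as well. The Ezh2-loss genes numbered 279, 87 and 120 when wild-type array 1, 2 or 3 was left out, and 105 and 232 when Ezh2-deficient array 1 or 3 was. Undone genes then numbered 137, 28, 50, 42 and 99, and kept genes 79, 37, 41, 43 and 77; without Snf5 Ezh2-deficient array 1, undone genes numbered 124. The share with an opposite call stayed between 46.0% and 59.9% when each of 9 arrays was left out, and was 25.1% when all 12 arrays were fitted with separate controls. Across 11 settings, namely each array left out in turn, Eif2s3y as covariate and Ezh2-deficient array 1 alone, 8 kept, 9 undone, 1 deepened and 1 reversed gene stayed in their class in all.

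**Figure D3:**
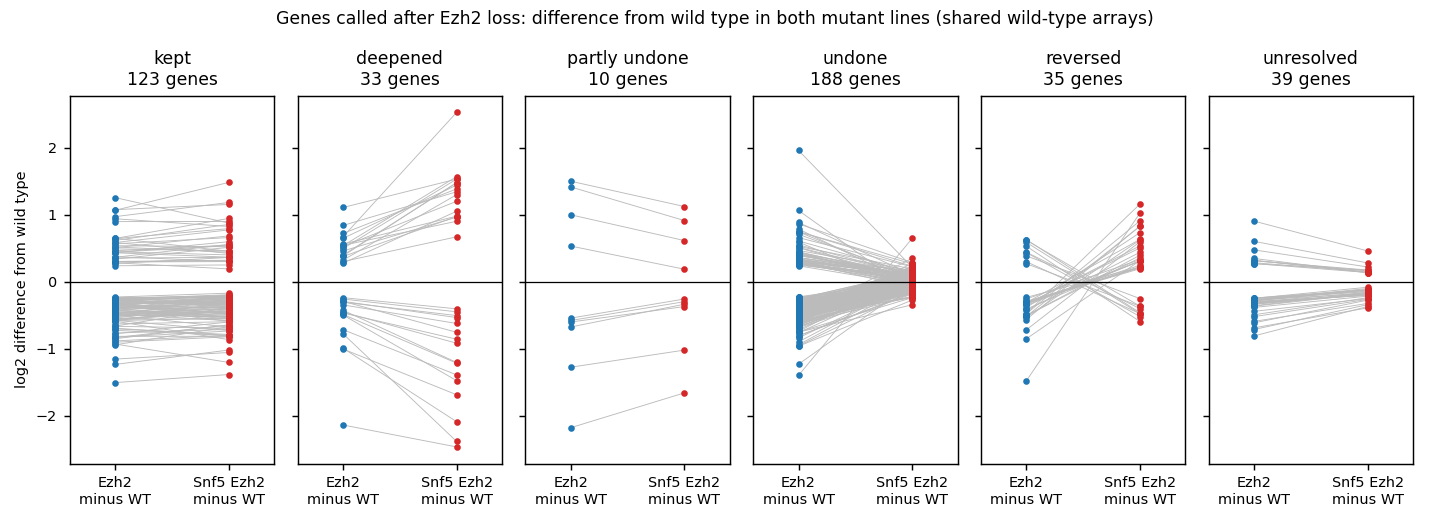
Log2 difference from wild type of each of 428 genes called after Ezh2 loss, in Ezh2-deficient (blue) and Snf5 Ezh2-deficient (red) MEFs, with a line joining the values of a gene and 1 panel for each class. The panels follow from how classes are defined; the 188 undone genes end between -0.34 and 0.65, and the 33 deepened genes move away from 0. Both differences use the same wild-type arrays.

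Genes of cell division made up a large group among the undone changes. Of 46 measured proliferation genes, a list of replication, mitosis and cyclin genes, 23 were lower and 0 higher after Ezh2 loss. Of the 23, 19 were undone in Snf5 Ezh2-deficient MEFs. Cdc20 was reversed, a class it kept in 1 of 9 leave-outs, Ccne2 and Mcm4 were kept, and Mcm6 was unresolved. Between the mutant lines, 34 of the 46 were higher and 0 lower, against 16.2% higher among all genes. Unadjusted p-values under 0.05 in limma gave 38 lower and 0 higher members after Ezh2 loss, and 36 higher and 0 lower ones between the mutant lines. The median member was -0.45 against wild type after Ezh2 loss, 0.45 higher after the added loss, and 0.03 from wild type in the end, where the median difference over all genes between the mutant lines was -0.03.

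Cdk1, the kinase that drives entry into mitosis, shows the pattern. It read 9.95, 10.22 and 10.06 in wild-type, 9.32, 9.42 and 9.54 in Ezh2-deficient and 10.36, 10.11 and 10.08 in Snf5 Ezh2-deficient MEFs. The fall of 0.65 (adjusted p 0.0105) was followed by a rise of 0.75 (SE 0.10, adjusted p 0.00032), and the last group overlapped wild type. Pcna, the sliding clamp of DNA polymerases, read 11.11, 11.22 and 11.18, then 10.46, 10.67 and 10.71, then 11.19, 11.07 and 11.05. Mcm5, a subunit of the replicative helicase, read 7.85, 8.38 and 8.08, then 7.18, 7.37 and 7.47, then 8.32, 7.99 and 8.02. In both genes, too, the Ezh2-deficient arrays lay below all others and the other groups overlapped.

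Top2a, the topoisomerase of dividing cells (-0.64, then 0.79), the mitotic kinesin Kif20a (-0.72, then 0.75), thymidine kinase Tk1 (-0.81, then 0.64) and the proliferation antigen Mki67 (-0.68, then 0.55) moved the same way. The other probe set of Top2a was called at neither step (0.07, then -0.20). Melk rose most among them, by 0.96 between the mutant lines, and had not been called after Ezh2 loss (-0.46). Cyclin Ccne2 went against the group: it read 6.18, 6.07 and 6.06 in wild type, 5.57, 5.61 and 5.73 in Ezh2-deficient and 5.66, 5.56 and 5.71 in Snf5 Ezh2-deficient MEFs, so both mutant lines lay below wild type and overlapped each other.

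The mean over the 46 genes read 8.12, 8.35 and 8.25 on the wild-type arrays, 7.73, 7.79 and 7.94 on the Ezh2-deficient ones and 8.40, 8.16 and 8.18 on the Snf5 Ezh2-deficient ones, so only the Ezh2-deficient arrays stood apart. The count of called members was less stable after Ezh2 loss than between the mutant lines. Ezh2-loss genes of all kinds also fell from 428, to 87 and 120 without wild-type array 2 or 3. Leaving out wild-type array 2 or 3 left 3 and 4 lower proliferation genes after Ezh2 loss, and leaving out Ezh2-deficient array 1 or 2 left 4 and 13. There were 3 with Eif2s3y as covariate and 4 with Ezh2-deficient array 1 alone. The 34 higher genes of the second step numbered 23 to 35 when each array was left out, 24 with the covariate and 26 with Ezh2-deficient array 1 alone. In bulk samples, a smaller share of dividing cells and less RNA per dividing cell cannot be told apart.

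Many cell-cycle promoters are known to bind E2F factors, and letters of their site, TTTCCCGC or TTTGGCGC, were searched on both strands of the 250 bases before each start in RefSeq promoters of GRCm38.p6. They were found for 3 of 30 called proliferation members with a promoter in the table (10%), for 1 of 8 other members (12.5%), for 2.51% of 9887 measured genes and for 1.51% of all 27025 genes with a promoter. The 3 matches are shown because these genes were all undone. Capitals mark the letters matched, here on the opposite strand to the gene. A match describes letters and does not show a site in use.
Mcm5, chr8:75109335-75109392, plus strand: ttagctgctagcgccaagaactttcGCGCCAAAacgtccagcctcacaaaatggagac
Mcm7, chr5:138172016-138172073, minus strand: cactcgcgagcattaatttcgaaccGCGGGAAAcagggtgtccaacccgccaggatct
Cdc6, chr11:98907988-98908045, plus strand: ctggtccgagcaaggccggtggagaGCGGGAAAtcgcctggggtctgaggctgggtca

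Among other undone changes, the largest rise after Ezh2 loss was that of Olr1, a lectin-like receptor that takes up oxidised lipoprotein. It read 4.99, 4.97 and 5.10 in wild-type, 6.29, 7.42 and 7.22 in Ezh2-deficient and 5.32, 4.66 and 5.72 in Snf5 Ezh2-deficient MEFs. The difference between the mutant lines was -1.74 (SE 0.30, adjusted p 0.00182), and the last group overlapped wild type. It was -1.08 (adjusted p 0.061) with Eif2s3y as covariate and -1.06 (adjusted p 0.055) with Ezh2-deficient array 1 alone, and so was called in neither. The chemokine gene Cxcl1, which attracts neutrophils, fell by 1.40 after Ezh2 loss (adjusted p 0.0393) and rose by 2.04 (SE 0.30, adjusted p 0.000784) after the added loss. Cxcl1 stayed undone in 4 of 9 leave-outs, and its fall was not called with Eif2s3y as covariate. Its arrays read 7.86, 7.84 and 7.91, then 6.12, 7.18 and 6.12, then 9.16, 8.16 and 8.23, so that each Snf5 Ezh2-deficient array lay above each wild-type one, although the difference of 0.65 was not called (adjusted p 0.154).

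Hoxd13, a homeobox gene of the distal limb, read 8.33, 8.29 and 8.49 in wild-type, 7.27, 7.71 and 7.71 in Ezh2-deficient and 8.27, 8.15 and 8.14 in Snf5 Ezh2-deficient MEFs. It fell by 0.80 and then rose by 0.62 (SE 0.11, adjusted p 0.00269), with the last group below but close to wild type. Fgf10, a growth factor of limb and lung buds, fell by 0.90 and then rose by 0.89 (adjusted p 0.00324), and Gsr, glutathione reductase, fell by 0.67 and then rose by 0.62 (adjusted p 0.000213). Nnt read 9.81, 9.83 and 9.89 in wild type, 8.88, 8.88 and 8.96 in Ezh2-deficient and 9.97, 9.63 and 9.83 in Snf5 Ezh2-deficient MEFs, and so counts as undone by the rule. Its strain deletion, named above, was not tested in these cells. The Y-linked gene Uty also counts as undone and follows the sex-linked genes: it read 6.61, 5.24 and 5.67 on the Ezh2-deficient arrays and 6.91 to 7.16 on all others. Its difference of 1.20 between the mutant lines was not called with Eif2s3y as covariate (0.40, adjusted p 0.10). A missing call against wild type does not show a full return: for 92 of the 188 undone genes the 95% interval against wild type left out a remainder of 0.5 of the Ezh2-loss change.

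The largest Ezh2-loss change that was reversed was that of Mgp, matrix Gla protein, a secreted inhibitor of calcification. It read 12.14, 12.21 and 12.14 in wild-type, 10.40, 10.92 and 10.73 in Ezh2-deficient and 12.58, 13.45 and 13.54 in Snf5 Ezh2-deficient MEFs. The 3 groups did not overlap: the gene fell by 1.48 after Ezh2 loss (adjusted p 0.0104). It was 2.51 higher in Snf5 Ezh2-deficient than in Ezh2-deficient MEFs (SE 0.22, adjusted p 3.67e-05), and 1.03 above wild type (adjusted p 0.00601). It was reversed under each of the 9 leave-outs, with the covariate and with Ezh2-deficient array 1 alone, and was the 1 reversed gene of which this held.

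Of the 35 reversed genes, 26 had fallen and 9 had risen after Ezh2 loss. Thbs3, a thrombospondin of the matrix, read 8.21, 8.39 and 8.26, then 7.54, 7.50 and 7.26, then 8.60, 8.57 and 8.64. Phyh, a peroxisomal enzyme of phytanic acid breakdown, read 7.18, 7.17 and 7.07, then 6.52, 6.69 and 6.52, then 7.89, 7.89 and 8.14. In both genes the Ezh2-deficient arrays were lowest and the Snf5 Ezh2-deficient arrays highest, without overlap. The kinase Nek3 (-0.72 after Ezh2 loss, 0.60 from wild type after both) and the quinone reductase Cryz (-0.53 and 0.62) were of this kind. Cryz kept its class in 3 of 9 leave-outs. The other probe set of Cryz rose between the mutant lines (0.44, adjusted p 0.00245) but was not called after Ezh2 loss (-0.13, adjusted p 0.348).

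Reversed genes that had risen first included N-cadherin, Cdh2, which read 10.64, 10.38 and 10.46 in wild-type, 11.30, 10.85 and 11.17 in Ezh2-deficient and 10.15, 10.08 and 10.15 in Snf5 Ezh2-deficient MEFs. Its difference from wild type went from 0.62 to -0.36 (adjusted p 0.0322), again without overlap, but it stayed in its class in 1 of 9 leave-outs. The other probe set of Cdh2 was called between the mutant lines (-0.86, adjusted p 0.00264). It was called neither after Ezh2 loss (0.46, adjusted p 0.126) nor against wild type after both losses (-0.41, adjusted p 0.0861). The fatty acid transporter Slc27a1 (0.63, then -0.46), the transcription factor Tfec (0.59, then -0.48) and the basement membrane protein Nid1 (0.44, then -0.52) crossed wild type in the same direction. Nid1 kept its class in 3 of 9 leave-outs.

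Changes that were kept included that of Cdkn2a, the PRC2-silenced locus of the cell-cycle inhibitors p16 and p19. It read 7.34, 6.44 and 6.57 in wild-type, 8.23, 7.94 and 7.96 in Ezh2-deficient and 7.64, 7.32 and 8.02 in Snf5 Ezh2-deficient MEFs. Both mutant lines lay 1.26 (adjusted p 0.0223) and 0.88 (adjusted p 0.0175) above wild type, and their difference of -0.38 (SE 0.23) was not called (adjusted p 0.248). Wild-type array 1, the high one of its group, overlapped the Snf5 Ezh2-deficient arrays, and the class held in 5 of 9 leave-outs and neither with the covariate nor with Ezh2-deficient array 1 alone. Ctse, the protease cathepsin E, read 8.90, 8.99 and 8.62, then 7.39, 7.82 and 7.60, then 7.94, 7.34 and 8.17, with both mutant lines below wild type. Its other probe set was not called after Ezh2 loss (0.09, adjusted p 0.496).

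Glo1, the glyoxalase of methylglyoxal removal, was kept in those 11 settings. It read 12, 12.08 and 12.06 in wild-type, 10.88, 10.88 and 10.93 in Ezh2-deficient and 11.09, 10.91 and 10.98 in Snf5 Ezh2-deficient MEFs, with an SD within each group far below the distance to wild type. Pop4, a subunit of RNase P (1.08 after Ezh2 loss, 1.15 after both), and the chromosome 8 genes Fam32a, Ocel1 and Rex1bd were also among the 8 kept genes of which this held. Ocel1 read 6.20, 6.25 and 6.28, then 5.49, 5.44 and 5.36, then 5.42, 5.53 and 5.35, so that both mutant lines lay 0.81 below wild type. The chemokine Cxcl12 (0.57, then 0.66) and the homeobox genes Hoxa9 (-0.70, then -0.79) and Hoxa10 (-0.48, then -0.58) were kept as well. Their class held in 5, 8 and 1 of 9 leave-outs, respectively, and with the covariate or with Ezh2-deficient array 1 alone only that of Hoxa10 did.

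The kept genes were spread unevenly over chromosomes. Chromosome 8 held 18 of the 123 (14.6%), against 5.20% of all genes measured and 5.85% of the undone genes. It was also rich in Ezh2-loss genes of any class, which were 42 of its 645 genes (6.51%), against 3.45% of all genes. Chromosome 3 held 14 kept genes (11.4%), against 5.08% of all genes, and 34 of its 630 genes (5.4%) were called after Ezh2 loss. Chromosome 4 held 12 kept genes (9.76%), against 5.96% of all genes. These chromosomes were singled out after their values were seen. As kept rests on a missing call, the interval matters: for 72 of the 123 the 95% interval of the difference between the mutant lines left out a return of 0.5 of the Ezh2-loss change.

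Deepened changes included Papss2, which makes the sulphate donor for matrix glycans. It read 8.51, 8.44 and 8.49 in wild-type, 9.63, 9.53 and 9.60 in Ezh2-deficient and 10.06, 10.06 and 9.91 in Snf5 Ezh2-deficient MEFs. The differences of 1.11 and 0.42 (SE 0.06, adjusted p 0.000739) were without overlap. By this probe set it was the 1 deepened gene that stayed so in all 11 settings. The other probe sets of Papss2 disagreed. For 1 of them both differences were called (0.84, adjusted p 0.0128, and 0.43, adjusted p 0.0321). Another was called at neither (0.17, adjusted p 0.240, and 0.16, adjusted p 0.180), nor was the last (0.17, adjusted p 0.164, and 0.02, adjusted p 0.863). Krt7, a keratin, read 7.68, 7.59 and 7.94, then 6.53, 6.92 and 6.74, then 5.87, 6.11 and 6.17, falling at both steps. The second step of Krt7 missed the threshold with Eif2s3y as covariate (-0.48, adjusted p 0.080) and with Ezh2-deficient array 1 alone (-0.48, adjusted p 0.071).

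Hmox1, the stress-induced heme oxygenase, rose by 0.72 and then by 0.67 (adjusted p 0.00454), and the imprinted transcription factor Plagl1 by 0.53 and then 0.68. Plagl1 stayed deepened in 4 of 9 leave-outs, and its first step was called neither with the covariate nor with Ezh2-deficient array 1 alone. The annexin Anxa8 fell by 0.78 (adjusted p 0.0458) and then by 1.61 (adjusted p 0.00013). It stayed deepened in 2 of 9 leave-outs, and its first step was called neither with the covariate nor with Ezh2-deficient array 1 alone. Wdfy1, a gene of endosomal signalling, read 9.53, 9.48 and 9.56, then 7.52, 7.22 and 7.41, then 7.04, 6.97 and 7.15. Nearly all of its difference from wild type was also seen in Ezh2-deficient MEFs. The difference of -0.33 between the mutant lines missed the threshold without Ezh2-deficient array 1 (-0.26, adjusted p 0.054). Neither of the 2 other probe sets of Wdfy1 was called between the mutant lines.

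Ezh2 itself was 1 of the 10 partly undone genes. The difference of 0.52 (SE 0.12, adjusted p 0.00812) between the mutant lines left it 1.66 below wild type. It was 0.41 (adjusted p 0.150) with Eif2s3y as covariate and 0.41 (adjusted p 0.152) with Ezh2-deficient array 1 alone, and so was no longer called there. The snoRNA host gene Snhg6 read 9.55, 9.61 and 9.55, then 11.02, 11.13 and 10.81, then 10.07, 10.69 and 10.69, a rise of 1.42 followed by a fall of 0.50 that missed the threshold without Ezh2-deficient array 1 (-0.48, adjusted p 0.084) or 2 (-0.43, adjusted p 0.091). The heme-binding protein Hebp1 (1.5, then -0.38, adjusted p 0.0493) kept its class in 1 of 9 leave-outs. The largest unresolved change was that of Mmp2, gelatinase A, which was 0.91 above wild type after Ezh2 loss and 0.46 above it after both (adjusted p 0.085), with -0.45 between the mutant lines (adjusted p 0.0882).

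A further 3416 genes were called between the mutant lines and not after Ezh2 loss, 1826 higher (14.7%) and 1590 lower (12.8%). A missing call after Ezh2 loss does not show that a gene was unaffected by it. The lists below were compiled with earlier results of these data known, so their counts are descriptions. Over all genes 16.2% were called higher and 13.4996% lower between the mutant lines, and each list count stands beside these shares.

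Interferon-stimulated genes, which cells switch on against viruses, formed the second large group. Of 39 measured members, 25 were higher and 0 lower in Snf5 Ezh2-deficient than in Ezh2-deficient MEFs, with a median difference of 0.86. After Ezh2 loss alone 0 were called higher and 1 lower, with a median of 0.14, and unadjusted p-values under 0.05 in limma gave 4 and 2. Between the mutant lines they gave 28 higher and 3 lower members. Against wild type the Snf5 Ezh2-deficient line had 30 higher and 2 lower members, with a median of 1.06. The list count between the mutant lines was 21 to 28 when each array was left out, 19 with Eif2s3y as covariate and 21 with Ezh2-deficient array 1 alone. There was 1 lower member when wild-type array 2 or 3, Ezh2-deficient array 2 or Snf5 Ezh2-deficient array 2 or 3 was left out.

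Cxcl10, a chemokine that attracts T cells, read 5.64, 5.67 and 5.92 in wild-type, 5.75, 6.14 and 5.69 in Ezh2-deficient and 9.40, 9.05 and 9.84 in Snf5 Ezh2-deficient MEFs. It rose by 3.57 (SE 0.18, adjusted p 2.63e-06), with the last group far from the others. Ifit1, which binds foreign RNA caps, rose by 3.60 (SE 0.50, adjusted p 0.000558), from 5.98, 7.83 and 5.85 to 9.34, 10.13 and 10.98. Ezh2-deficient array 2 was the high one of its group in Ifit1 and likewise in Usp18, which read 5.79, 7.22 and 5.85 and then 7.95, 8.57 and 9.62. The spread within both groups was thus wide, and the groups still did not overlap.

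The antiviral sensor Ifih1 rose by 1.46, Oasl2 by 2.39, the tetherin gene Bst2 by 1.81 and the factors Stat2 by 1.60 and Irf9 by 1.47. Stat2 read 6.53, 7.02 and 6.50 before and 7.95, 8.41 and 8.48 after the added loss. Not all members followed: Mx1 (-0.11), Mx2 (0.03), Rsad2 (0.05), Oas2 (-0.13) and Oas3 (-0.22) were not called between the mutant lines. Ifit2 went the other way, 0.59 below wild type after Ezh2 loss and 0.86 below it after both, and was kept. The mean of the 39 genes read 6.49 to 6.54 on the wild-type arrays, 6.59, 6.94 and 6.54 on the Ezh2-deficient ones and 7.30, 7.64 and 8.02 on the Snf5 Ezh2-deficient ones. Each Snf5 Ezh2-deficient array lay above all others, and they differed among themselves by more than the wild-type arrays did.

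Genes of antigen presentation by MHC class I, which interferon is known to raise, showed 8 higher and 0 lower members of 14, and the same counts at an unadjusted p under 0.05 in limma. The peptide transporter Tap1 read 7.90, 7.92 and 7.97 in Ezh2-deficient and 8.99, 9.16 and 9.40 in Snf5 Ezh2-deficient MEFs (1.25, adjusted p 2.65e-05), and Tapbp, which loads peptides, rose by 1.21. The light chain B2m (0.06) and H2-K1 (0.43) were not called. Tap1, Psmb8 and Psmb9 stand in both lists.

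The promoters of interferon-stimulated genes are known for the interferon-stimulated response element, searched here as the letters GAAA, then 2 of any kind, then GAAA, on both strands of the 250 bases before each start. It was found for 8 of 19 higher members with a promoter in the table (42.1%), for 5 of 10 other members (50%), for 3.35% of 9887 measured genes and for 3.46% of all 27025 genes with a promoter, so it did not set the members that rose apart from the rest of the list. The matches of 4 genes that rose are shown, with the matched letters in capitals, from RefSeq promoters of GRCm38.p6; in Ifit1, which holds 2 matches here, and in Stat2 they lie on the opposite strand, and in Bst2 2 matches overlap.
Ifit1, chr19:34640779-34640838, plus strand: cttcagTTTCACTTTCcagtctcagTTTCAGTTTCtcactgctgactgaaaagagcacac
Cxcl10, chr5:92349068-92349127, minus strand: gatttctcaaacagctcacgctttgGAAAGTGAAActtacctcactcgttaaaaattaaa
Bst2, chr8:71537562-71537621, minus strand: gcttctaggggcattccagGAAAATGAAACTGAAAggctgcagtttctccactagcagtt
Stat2, chr10:128270251-128270310, plus strand: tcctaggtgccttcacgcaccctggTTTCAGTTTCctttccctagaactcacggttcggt

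**Figure D4:**
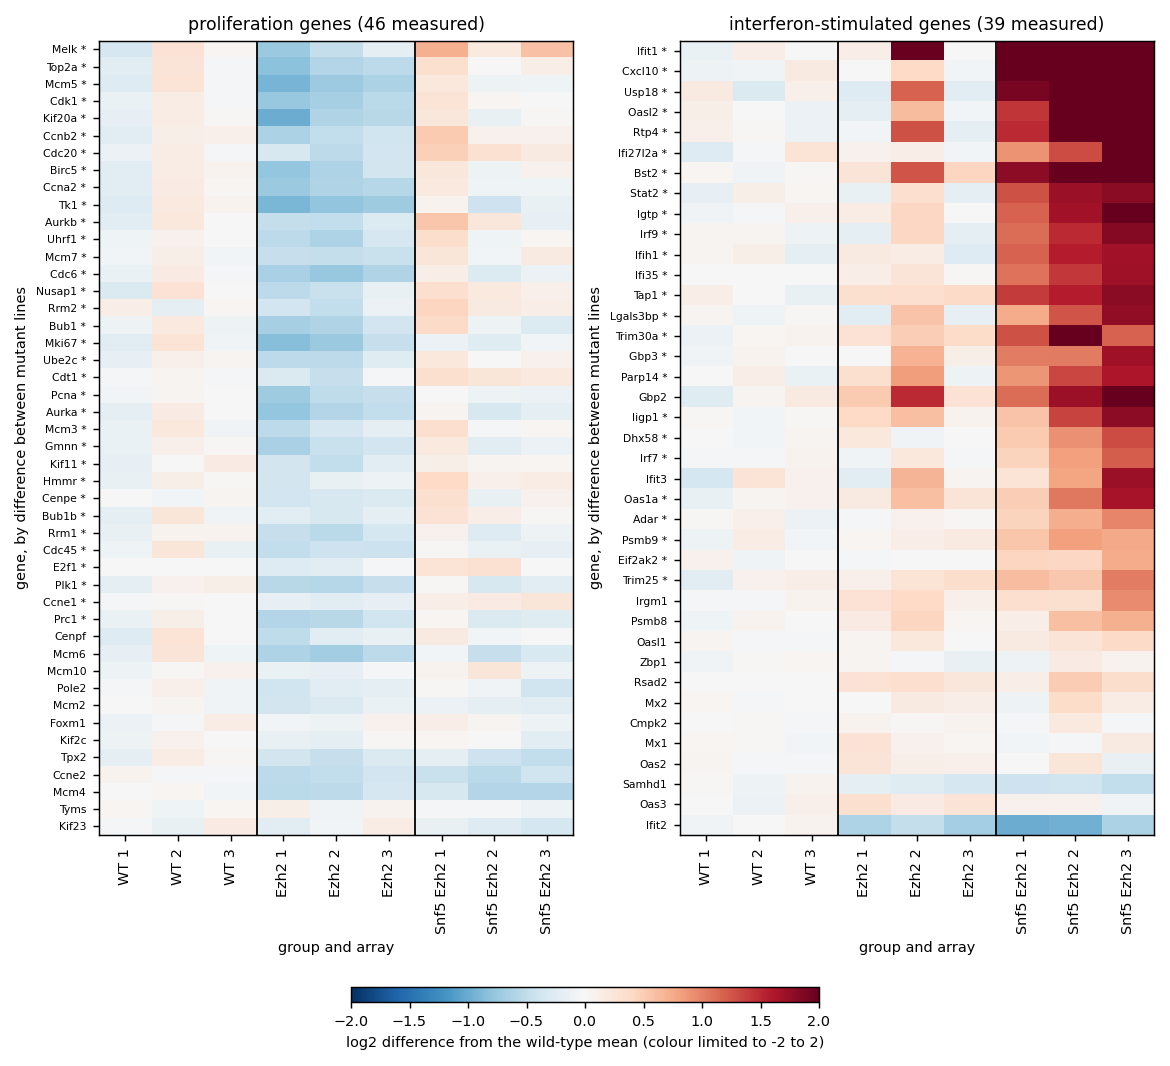
Log2 difference from the wild-type mean of 46 proliferation genes (left) and 39 interferon-stimulated genes (right) on each of 9 arrays, ordered by the difference between the mutant lines; red is higher, blue is lower, colours are limited to -2 to 2, and an asterisk marks genes called between the mutant lines. Proliferation genes are low on the 3 Ezh2-deficient arrays and near wild type on the Snf5 Ezh2-deficient ones, and most interferon-stimulated genes are high on the Snf5 Ezh2-deficient arrays, some also on Ezh2-deficient array 2.

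Of 28 targets of p53, the damage-responsive tumour suppressor, 16 were higher, 2 lower and 10 not called between the mutant lines, with a median of 0.31, against 16.2% higher among all genes. After Ezh2 loss 0 were called, and 10 higher and 1 lower had an unadjusted p under 0.05 in limma. The falling members numbered 1 when any array other than Ezh2-deficient array 2 was left out. The death receptor Fas read 7.40, 7.40 and 7.44 in wild-type, 8.25, 7.86 and 7.62 in Ezh2-deficient and 9.38, 9.19 and 9.28 in Snf5 Ezh2-deficient MEFs, a rise of 1.38 (SE 0.13, adjusted p 5.56e-05). Gtse1, a regulator of p53 in dividing cells (0.94), Trp53inp1 (0.85), Sesn1 (0.72) and Btg2 (0.70) rose, while Perp (-0.68) and Plk2 (-0.61) fell. Perp lay above wild type in Ezh2-deficient MEFs, at 9.69, 9.19 and 10.36 against 8.90 to 9.05. Mdm2 (0.18) and Ccng1 (0.08), both standard p53 targets, were not called between the mutant lines.

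Of 7 inhibitors of cyclin-dependent kinases, 4 rose, 2 fell and Cdkn2a was not called. Cdkn2c, which encodes p18, read 7.54, 7.81 and 7.63 in Ezh2-deficient and 9.60, 9.44 and 9.19 in Snf5 Ezh2-deficient MEFs (1.76, SE 0.12, adjusted p 1.01e-05). Cdkn2d (0.95), Cdkn1b (0.53) and Cdkn1a (0.23, adjusted p 0.0481) rose as well. The probe sets of Cdkn1a disagree. The probe set used here was not called after Ezh2 loss (0.03, adjusted p 0.832), whereas the other read 11.58, 11.24 and 11.60 in wild-type, 8.71, 8.94 and 8.65 in Ezh2-deficient and 8.66, 8.99 and 9.23 in Snf5 Ezh2-deficient MEFs. It fell by 2.71 after Ezh2 loss (adjusted p 9.32e-06), and its difference of 0.19 between the mutant lines was not called (adjusted p 0.36). The other probe set of Cdkn1b was not called between the mutant lines either (0.12, adjusted p 0.394). The imprinted inhibitor Cdkn1c fell by 1.36, from 10.34, 9.84 and 10.30 to 8.94, 8.67 and 8.81, and Cdkn2b fell by 0.69. Inhibitors and proliferation genes thus both held members that rose.

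Contractile genes and targets of the mechanosensitive factors SRF and YAP went down. Of 25 contractile genes 14 were lower and 1, Synpo2, was higher between the mutant lines, well above the share of lower genes overall. Lmod1, an actin nucleator, fell by 0.74, desmin, Des, by 0.61, the tropomyosin Tpm4 by 0.47 and Tagln by 0.46. The smooth muscle actin Acta2 (-0.08) was not called. Of 14 CCN and YAP target genes 7 were lower and 1 higher. Ccn2, a secreted matricellular protein, read 13.86, 13.73 and 13.61 in Ezh2-deficient and 12.49, 12.24 and 12.36 in Snf5 Ezh2-deficient MEFs (-1.37, SE 0.10, adjusted p 1.31e-05). Ccn4 (-1.47), Ccn5 (-1.41), Ankrd1 (-1.03) and the receptor kinase Axl (-0.91) fell, and Ccn3 rose by 1.83 (adjusted p 0.00625). With Eif2s3y as covariate 8 contractile genes were lower and 0 higher, and without Ezh2-deficient array 1 there were 2 higher.

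Matrix proteases and their inhibitors had 9 lower and 2 higher members of 22, and 4 were lower with Eif2s3y as covariate. The collagenase of bone and cartilage Mmp13 (-1.57) and cathepsin K, Ctsk (-1.56), fell beside Tfpi2 and Mmp3, and the aggrecanases Adamts4 (1.17) and Adamts1 (0.92) rose. Other matrix genes moved both ways, 15 higher and 9 lower of 52. Those that rose included Ogn, osteoglycin (1.68), and the matrilins Matn2 (1.72) and Matn4 (1.49). Fbln2 (-0.80), Lama2 (-0.78) and Bgn, biglycan (-0.64), fell. Of 25 collagen genes 5 were higher and 6 lower, against 16.2% and 13.4996% of all genes. Col11a1 (1.35), Col18a1 (1.40) and Col5a3 (1.44) rose and Col5a1 (-0.84) and Col7a1 (-0.79) fell, while the main fibrillar genes Col1a1 (-0.14) and Col1a2 (-0.19) were not called. The higher collagen genes numbered 3 without Ezh2-deficient array 1, Ezh2-deficient array 3 or Snf5 Ezh2-deficient array 2.

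Wnt pathway genes had 15 higher and 2 lower members of 39, with 9 higher when Eif2s3y was a covariate and 1 lower without wild-type array 3. Besides Sfrp2 they included the antagonists Apcdd1 (1.29) and Wif1 (1.02), the ligand Wnt16 (1.33) and the receptor Lgr5 (0.60). Axin2, a general readout of Wnt signalling, was not called (-0.03). TGF-beta and BMP pathway genes had 10 higher and 10 lower members of 36, with 6 lower without Ezh2-deficient array 1 and 6 higher when Eif2s3y was a covariate. Receptor kinase feedback and immediate early genes had 6 higher and 6 lower members of 26, with 3 lower when Eif2s3y was a covariate. Over all genes 16.2% were higher and 13.4996% lower. Imprinted genes had 10 higher and 4 lower members of 27, with 2 lower when Ezh2-deficient array 1 or Snf5 Ezh2-deficient array 3 was left out. Dlk1, an inhibitor of adipocyte differentiation, read 9.05, 8.38 and 9.76 in Ezh2-deficient and 11.14, 12.06 and 11.23 in Snf5 Ezh2-deficient MEFs (a rise of 2.41, SE 0.32, adjusted p 0.000412). The imprinted genes Nnat (1.40), Peg10 (1.40), Meg3 (1.07) and Igf2 (0.62) rose as well.

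Among 92 developmental transcription factors outside the Hox clusters, which PRC2 is known to silence in many tissues, 18 were higher (16.2% among all genes) and 7 lower, and 10 were higher with Eif2s3y as covariate. Lhx2 (1.31), Tbx18 (1.14), Meox1 (1.14), Msx1 (1.13) and Shox2 (1.07) rose, and Zic1 fell by 1.00. Of the list 21 of the 92 lay in the lowest 25% of values on all 9 arrays. After Ezh2 loss alone 2 were called higher and 3 lower. Of 31 Hox genes 4 were higher and 5 lower between the mutant lines, close to the shares over all genes. Hoxd13 and Hoxd11, both undone, were higher, while Hoxb2 (-0.57), Hoxb6 (-0.45), Hoxb9 (-0.45), Hoxa3 (-0.35) and Hoxb4 (-0.22) were lower. Lower Hox genes numbered 3 without Ezh2-deficient array 1 or 2 or Snf5 Ezh2-deficient array 1, and higher ones 2 without Ezh2-deficient array 1. After Ezh2 loss 5 Hox genes were lower and 0 higher (8 and 3 at an unadjusted p under 0.05 in limma): Hoxa9, Hoxa10, Hoxa11, Hoxd11 and Hoxd13.

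Subunits of the chromatin complexes themselves changed moderately. Of 22 SWI/SNF subunits 6 rose between the mutant lines, and Bcl7b (-0.24, adjusted p 0.034) fell beside Smarcb1; 3 rose with Eif2s3y as covariate. The lower subunits numbered 1 when any array other than wild-type array 1 or Ezh2-deficient array 2 was left out. Arid1a, a subunit of the BAF form, read 9.58, 9.54 and 9.63 in Ezh2-deficient and 10.42, 10.46 and 10.47 in Snf5 Ezh2-deficient MEFs (0.87, SE 0.06, adjusted p 8.84e-06). Arid2 of the PBAF form (0.52), Bcl7c (0.50) and the ATPase Smarca4 (0.27) rose too. Of 12 PRC2 genes 5 were higher and 0 lower, Ezh2, Jarid2 (0.58), Suz12 (0.37), Eed (0.25) and Rbbp7 (0.21). Higher PRC2 genes numbered 3 without Snf5 Ezh2-deficient array 1 and 2 with Eif2s3y as covariate. Without Snf5 Ezh2-deficient array 1 or wild-type array 3, 1 was lower. At an unadjusted p under 0.05 in limma, 5 were higher and 1 lower. The paralog Ezh1 was not called (0.05). Of 15 PRC1 genes 6 were higher and 1 lower. The ubiquitin ligase Rnf2 read 9.47, 9.55 and 9.37 before and 10.59, 10.68 and 10.81 after the added loss (1.23, SE 0.08, adjusted p 6.19e-06), and Bmi1 rose by 0.37. Its earlier rise of 0.30 after Ezh2 loss was called in 3 of 9 leave-outs and neither with the covariate nor with Ezh2-deficient array 1 alone, and its other probe set missed the threshold there (0.31, adjusted p 0.0525).

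Among metabolic genes, of 17 glycolysis and lactate genes 6 were lower and 2 higher: the hexokinases Hk2 (-0.78) and Hk1 (-0.54) and the enzyme Pgk1 (-0.35) fell, and the lactate carrier Slc16a1 (0.83) and Pfkm (0.49) rose. Oxidative phosphorylation genes had 8 higher and 2 lower members of 35, against 16.2% and 13.4996% of all genes. Among them Ndufb2 (0.48) rose most, and 2 were higher when Eif2s3y was a covariate. The lower ones numbered 0 without Ezh2-deficient array 1 or Snf5 Ezh2-deficient array 1 or 2, and 1 without Ezh2-deficient array 3. Cholesterol synthesis genes had 3 higher and 2 lower members of 19, near the shares over all genes. The count turned on single arrays: 8 were higher without Ezh2-deficient array 2 and 6 lower without Ezh2-deficient array 3. It was 1 lower without Ezh2-deficient array 1 or 2 or Snf5 Ezh2-deficient array 1 or 2.

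**Figure D5:**
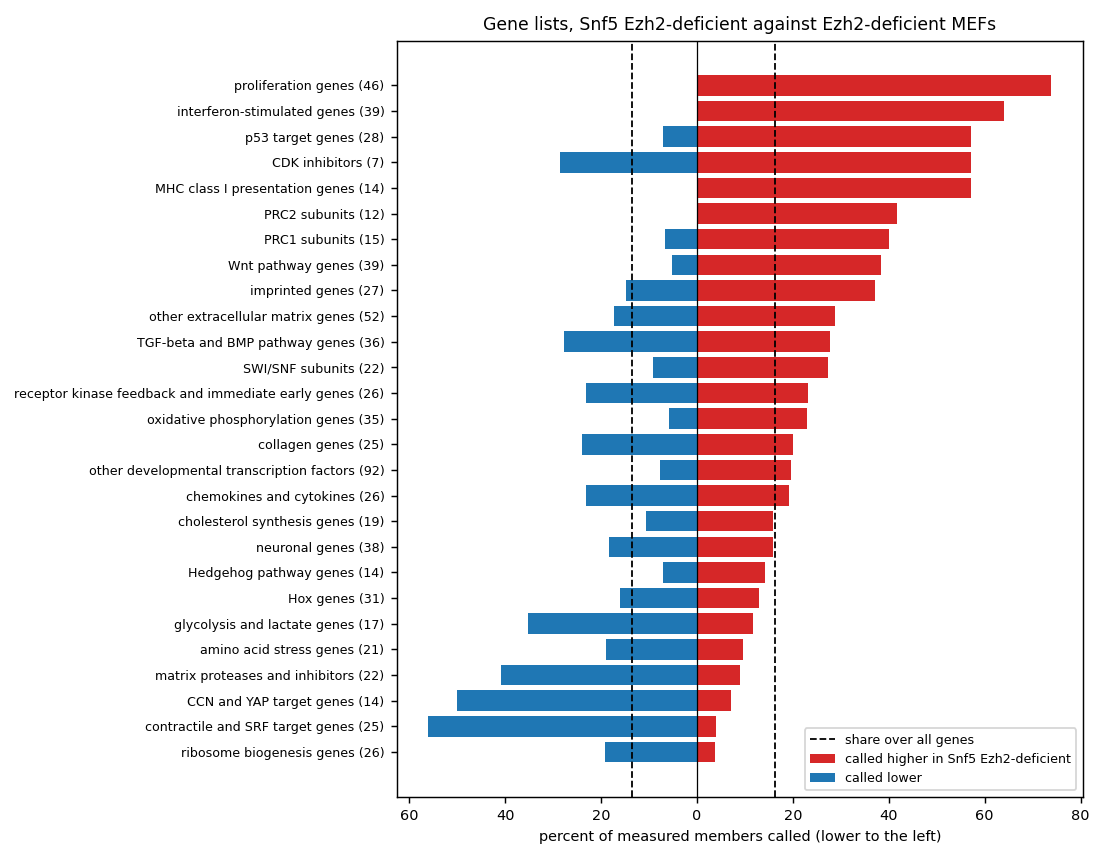
Percent of the measured members of 27 gene lists that were called higher (red, right) or lower (blue, left) in Snf5 Ezh2-deficient than in Ezh2-deficient MEFs, with the number of members in brackets; dashed lines mark the shares of higher (16.2%) and lower genes over all genes measured. Proliferation and interferon-stimulated genes lie furthest above the higher line, and contractile and CCN and YAP target genes furthest past the lower one.

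Markers of other cell types were compared between the lines gene by gene. Among 19 macrophage markers 2 were higher between the mutant lines, Cd14 (0.58) and C1qb (0.26), against 16.2% of all genes. The mean of the 19 read 6.17 to 6.40 on wild-type, 5.91, 6.38 and 5.89 on Ezh2-deficient and 6.17 to 6.49 on Snf5 Ezh2-deficient arrays. The lysozyme gene Lyz2 read 7.37, 9.42 and 6.95 on the Ezh2-deficient arrays and 8.80 to 9.97 on all others, and its difference of 1.45 was not called (adjusted p 0.0722). Ezh2-deficient array 2, the high one, was also high in Ifit1 and Usp18, and the part of such cells in the interferon list was not tested. Epithelial markers had 4 lower and 0 higher members of 15, against 13.4996% lower and 16.2% higher among all genes. The lower ones were Krt18 (-1.71), Krt7, Cldn3 (-0.25) and Cldn4 (-0.44), and the defining marker Epcam was not called (-0.07). Of the 16 fibroblast markers 4 rose, among them the receptor Pdgfra (1.49), and Col5a1 and Fn1 (-0.35) fell, against the same shares. Adipocyte markers had 3 lower and 0 higher members of 10, skeletal muscle markers 4 and 1 of 17, and erythroid markers 3 and 1 of 13. For cartilage and bone markers they were 0 and 3 of 12, and for endothelial markers 2 and 1 of 15. Schwann and neural crest markers had 2 and 2 of 13, and lymphocyte markers 1 and 0 of 14.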

How the data were processed

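RNA of mouse embryonic fibroblasts was hybridised to Affymetrix Mouse 430A 2.0 arrays. Per the labels' protocols, the authors summarised the scans with Robust Multichip Average (RMA), whose version is not stated there. They deposited intensity values that were linear, and log2 was taken before any fit, as planned for linear values. Of 22690 probe sets 64 controls were left out. Of those tested 20380 named 1 gene, 691 several and 1555 none, by the platform's annotation; 20351 gene numbers were found in a gene table of GRCm38.p6, with 0 symbols changed. Each of 12393 genes was counted through its probe set of highest mean.

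Over 5565 bright probe sets, wild-type arrays of the same number in both sets differed by an SD of 0.0220 to 0.0240, and those of different numbers by 0.152 to 0.158; the former were counted once, averaged over both sets after the offset was removed. The 9 arrays were fitted with limma 3.58.1 (lmFit, eBayes) in R 4.3.3, with 6 residual degrees of freedom and a median SE of 0.0762 between the mutant lines. The scripts were tested on simulated data.

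The genes named are Ezh2 and Smarcb1, the 12 largest rises and falls among called genes without overlap, up to 8 genes per class by Ezh2-loss difference, up to 6 called members per list, and sex-linked genes; list members beyond these were named after their values were seen. The members and lists were chosen with earlier results of these data known. Of 214 genes under this rule, 82 called ones had other probe sets, at least 1 of which was called the same way for 60 and the opposite way for 1. Figures were drawn with matplotlib. Alternatives are given in the closing section.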

Additional observations from a re-analysis of the deposited data

How the results depend on the processing

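Ezh2-deficient array 1 alone was a setting chosen after seeing the data. The classes could not be formed with the 6 mutant arrays alone, which hold no controls. Called genes between the mutant lines (3682) numbered 1935 with 12 arrays and separate controls, 5745 without the offset, 1862 with Eif2s3y as covariate, 2092 at an adjusted p of 0.01 and 2089 with array 1 alone; those not called after Ezh2 loss (3416) numbered 1678, 5508, 1813, 2064 and 2010. Kept genes (123) numbered 261 with 12 arrays, 25 with the covariate, 19 at 0.01 and 40 with array 1 alone, undone genes (188) 27, 21 and 42 in the last 3, and deepened genes (33) 8, 4 and 16. Reversed genes (35) numbered 59, 10, 1 and 17, partly undone genes (10) 3, 4, 2 and 4, and 16 without the offset, and unresolved genes (39) 322, 0, 2 and 0, and 14 without the offset. Higher proliferation genes (34) numbered 17 with 12 arrays and 19 at 0.01. The Ezh2 difference of 0.52 was 0.41 with the covariate and 0.41 with array 1 alone. The Kdm5d difference turned to -0.00775 with the covariate, and the Ttc28 difference to 0.0124 with the mean over probe sets. The cause was not tested.

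With each array left out in turn, called genes numbered 2813 to 3476, those not called after Ezh2 loss 2724 to 3428, kept 37 to 133, undone 28 to 215, deepened 8 to 44, partly undone 4 to 11, reversed 5 to 46 and unresolved 0 to 91 genes. Higher proliferation genes numbered 23 to 35 and interferon-stimulated ones 21 to 28; the Ezh2 difference was 0.38 to 0.66 and that of Smarcb1 -2.38 to -2.24. Residuals of same-numbered mutant arrays correlated at 0.21, -0.07 and -0.33. Those of same-numbered wild-type and Ezh2-deficient arrays correlated at 0.20, 0.22 and 0.01. With 3 arrays per group, these values cannot decide whether the numbers pair the samples. With the replicate number as a block, 3396 genes were called, with 69 kept, 82 undone, 23 reversed and 6 unresolved. Ezh2-loss genes then numbered 213, and proliferation genes lower after Ezh2 loss 10. Signal near the floor limits folds: in 23 of 285 genes changed at least 2-fold, the lower group lay in the lowest 25% of values on all 3 arrays.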
